A study of Mus musculus with 12 samples.

Results

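The genes on either side of Slc4a4 on mouse chromosome 5 were examined in hearts with and without a cardiac deletion of that gene. Slc4a4 encodes NBCe1, an electrogenic sodium-bicarbonate cotransporter. A list of 48 names between about 84 and 94 Mb of the chromosome (mm10) was matched by symbol or synonym to the deposited gene identifiers, and 47 of the 24061 gene rows were found. Pf4l had no matching symbol or synonym and was not analysed here, and Sept11 was found under its RefSeq symbol Septin11. Of the 47 genes, 9 lie upstream of Slc4a4, at lower coordinates, and 38 lie downstream. The interval holds 58 further annotated genes of the table, of which 35 had no read in any heart.

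RNA was taken from the entire heart of male mice aged 4 months, 6 per group, and 1 library was sequenced per mouse. All 12 mice were Slc4a4flx/flx, so both groups carried the floxed allele on both chromosomes. The 6 knockout mice (K7 to K12) also carried Cre recombinase under a β-myosin promoter, active in cardiac myocytes, and Cre removes exon 12 there. The 6 mice labelled wild type (W1 to W6) were the floxed mice without Cre, and the deletion and the presence of Cre cannot be told apart by this design. In whole-heart RNA, fewer cells of a type and less RNA per cell cannot be told apart either. Libraries held 10631869 to 13327519 counts. The 6 cardiac myocyte markers, such as Myh6 and Tnnt2, together made up 37250 to 45380 counts per 1000000 (CPM) in wild-type libraries and 38080 to 42340 CPM in knockout libraries, as fits the labelled tissue.

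A floxed gene can sit beside genes that have nothing to do with it, and a targeted allele can alter their expression, so neighbours are a common check of such models. Here both groups carried the floxed allele, so an effect of that allele itself on its neighbours could not be seen. The comparison is of hearts with Cre and the deletion against hearts without them. The stretch of chromosome 5 around Slc4a4 holds both broadly used genes and families of related genes that arose side by side. These include the albumin family, whose members are blood carrier proteins made mainly by the liver, the CXC chemokines, which attract leukocytes, and the ligands of the EGF receptor family, which are shed from cell surfaces to signal to their neighbours.

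Distances are given from the nearest edge of Slc4a4, which spans 88793858 to 89239656 of chromosome 5 on the plus strand (GRCm38), and exon 12 lies at chr5:89135646-89135820 in 3 of the 4 GENCODE M21 transcripts that have an exon 12. The study may number its exons differently. The exon is 175 bases long, which is not a multiple of 3, and is shown because it is the piece that Cre is meant to remove:
Slc4a4 exon 12: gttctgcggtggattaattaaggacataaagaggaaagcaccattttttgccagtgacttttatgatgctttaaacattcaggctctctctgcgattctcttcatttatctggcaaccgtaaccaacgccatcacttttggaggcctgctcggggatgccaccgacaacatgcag
In wild-type hearts Slc4a4 ranged from 63.6 to 106 CPM with a median of 91.0, and in knockout hearts from 38.4 to 68.1 CPM with a median of 48.0. In 5 of 6 knockout hearts the level was below every wild-type heart, and K8 overlapped with W2 and W5. The mean was 87.1 ± 18.6 and 49.9 ± 11.4 CPM (SD, n = 6 each), and the difference had an exact two-sided permutation p of 0.00649 over 924 regroupings. The log2 fold change was -0.81 with a 95% interval of -1.10 to -0.51 (edgeR adjusted p = 0.0891). With single libraries left out the edgeR adjusted p ranged from 0.0275, without K8, to 0.335, and DESeq2 gave an adjusted p of 0.000442. The counts are of the whole gene, so reads of exons that Cre leaves in place are included. The lower level of Slc4a4 is therefore not a measure of the loss of exon 12.

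Across the tested flanking genes, expression in knockout hearts was close to that in wild-type hearts, with 1 gene, Alb, far apart. Of the 47 genes found, 30 had enough reads for the test, 7 upstream and 23 downstream. None of the 30 was called at an edgeR adjusted p under 0.05, as in the whole table (0% of 13832 genes). At an unadjusted p under 0.05 there were 3, namely Alb and Cenpc1, higher in knockout, and Art3, lower, which is 10% against 4.06% of all tested genes. By direction, 2 were higher and 1 lower, against 2.07% and 2% of all tested genes. DESeq2 called Alb only (0.0434% of all tested genes called), and limma-voom called none (0%). Alb, Cenpc1 and Art3 were also the 3 with an unadjusted p under 0.05 in DESeq2 (4.16% of all tested genes) and in limma-voom (4.1%). The count at an unadjusted p under 0.05 was 5 without W5 (3.8% of all tested genes), 7 without W6 (5.59%) and 1 without K8 (3.85%). The values of the groups did not overlap for 1 of the 30 genes, Alb, against 0.239% of all tested genes (0.159% higher in knockout and 0.0795% lower). Alb passed the filter mainly through the knockout libraries, so its place in these counts is no support for a difference. Without Alb, 2 of 29 genes (6.9%) had an unadjusted edgeR p under 0.05, and 0 were without overlap. Of the 58 other genes of the interval 5 were tested, and 0 of these had an unadjusted p under 0.05.

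For the rest, the intervals bound how large a difference in whole-heart RNA could be. A change in cardiac myocytes alone is not bounded by them. The median log2 fold change of the 30 genes was 0.04, against 0.00 for all tested genes, and 19 were positive and 11 negative. For 27 of 30 the 95% interval included 0, and for 27 of 30 it lay within a 1.5-fold change either way, against 77.3% of all tested genes. Above a mean level of 5 CPM these shares were closer, at 96.4% of 28 flanking genes and 94.8% of all genes. The 3 whose interval reached past 1.5-fold were Alb, Cxcl1 and Btc. The remaining 17 genes were too low for the test. Of these 12 had fewer than 30 reads over all 12 hearts, and Afp and Areg had none.

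**Figure D1:**
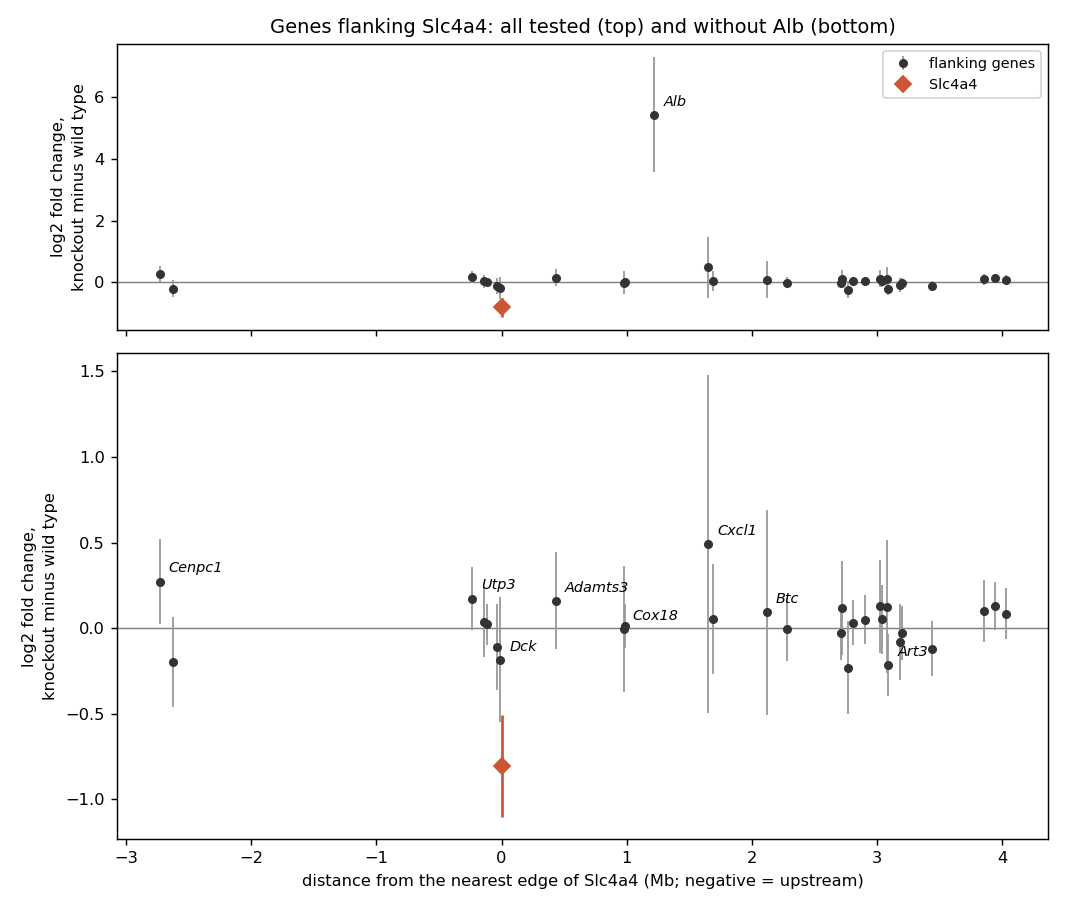
Log2 fold change (knockout minus wild type, y axis) of the 30 tested flanking genes against distance from the nearest edge of Slc4a4 in Mb (x axis, negative upstream). Bars are 95% intervals from edgeR, the diamond is Slc4a4 at -0.81, and the lower panel leaves out Alb, which lies at 5.43 in the upper panel, to show the other 29 between -0.23 and 0.49.

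Distance from Slc4a4 did not order the fold changes of the tested genes. Across the 30 genes Spearman's rho between log2 fold change and distance was -0.01, and 0.03 without Alb (n = 29). For the absolute fold change it was 0.03, and 0.07 without Alb. These are descriptions across genes of the same 12 libraries, and leaving out W2 moved the first value to -0.18. The absolute fold change followed the level more than the distance, with rho = -0.46 against mean CPM (n = 30). Within 1 Mb, the median over the 8 tested genes of the list was 0.02 on the log2 scale, the values ranged from -0.18 to 0.17, and 0 of them had an unadjusted p under 0.05. All 8 intervals lay within 1.5-fold. The interval of Slc4a4 ended at -0.51, and 7 of these 8 intervals lay wholly above it. The exception was Dck, the nearest gene, whose interval reached down to -0.55. Gc, a listed gene 0.178 Mb downstream, was too low for the test and is not among the 8. It had 4 reads in wild type and 84 in knockout. In the edgeR fit of all genes with a read its log2 fold change was 4.20 (adjusted p = 0.240). Jchain, a tested gene 0.266 Mb away, was not listed and was looked at after its values were seen. Its log2 fold change was 0.46 (edgeR adjusted p = 0.999). With Jchain included, 9 genes were tested within 1 Mb. Their values ranged from -0.18 to 0.46, and 8 of the 9 intervals lay within 1.5-fold. The 3 tested genes of the list at 1 to 2 Mb were Alb, Cxcl1 and Mthfd2l. The 19 genes at 2 to 5 Mb had a median of 0.05 and ranged from -0.23 to 0.27, while the 813 tested genes of chromosome 5 at 5 Mb or more had a median of -0.01.

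Immediately upstream of Slc4a4 lie Dck, Mob1b, Grsf1 and Rufy3. Dck, deoxycytidine kinase of the nucleoside salvage pathway, ends 10581 bases before Slc4a4 begins. It ranged from 8.37 to 11.2 CPM with a median of 9.37 in wild type and from 5.49 to 11.3 CPM with a median of 8.88 in knockout. The knockout hearts were spread wider than the wild-type hearts, with K7, K8 and K11 below and K10 above all of them. The log2 fold change was -0.18 (95% interval -0.55 to 0.18), and DESeq2 also gave no call. It was -0.08 without K7 and -0.28 without K10. Mob1b, an activator of the kinases of the Hippo growth control pathway, lies 0.0354 Mb away. It ranged from 34.8 to 58.4 CPM with a median of 55.1 in wild type, where W6 stood well below the others, and from 42.0 to 62.2 CPM with a median of 48.5 in knockout, where K7 stood above. Its log2 fold change was -0.11 (95% interval -0.36 to 0.14), and -0.21 without W6.

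Grsf1, an RNA-binding protein of mitochondrial RNA granules, was the most abundant of the flanking genes in reads and per length of exon. It ranged from 340.0 to 400.5 CPM with a median of 356 in wild type and from 361 to 386 CPM with a median of 375 in knockout, and the knockout range lay inside the wild-type range. The log2 fold change of 0.02 had a 95% interval of -0.10 to 0.14, the narrowest of the 30. Rufy3, an adaptor for lysosome and axon transport, ranged from 23.9 to 35.3 CPM with a median of 31.5 in wild type and from 25.6 to 35.4 CPM with a median of 32.1 in knockout. The groups overlapped, K11 alone lying above the wild-type range, with a log2 fold change of 0.04 (95% interval -0.17 to 0.24). Utp3, a nucleolar protein of small ribosomal subunit assembly 0.238 Mb upstream, ranged from 28.3 to 41.4 CPM with a median of 35.9 in wild type and from 36.7 to 44.2 CPM with a median of 39.9 in knockout. All 6 knockout hearts lay above the wild-type median, and 2 lay above every wild-type heart. The log2 fold change was 0.17 (95% interval -0.01 to 0.36, edgeR unadjusted p = 0.0625, adjusted p = 0.999).

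The nearest tested genes of the list downstream are Adamts3, Cox18, Ankrd17 and Alb. Adamts3, a protease that trims procollagens and processes VEGF-C, ranged from 10.8 to 21.8 CPM with a median of 14.6 in wild type and from 15.5 to 19.9 CPM with a median of 15.9 in knockout. The knockout range lay inside the wild-type range, and the log2 fold change was 0.16 (95% interval -0.12 to 0.44). It was 0.08 without W1 and 0.28 without W6, where the unadjusted p was 0.0340 (edgeR adjusted p = 0.838). Cox18, which inserts a cytochrome oxidase subunit into the inner mitochondrial membrane, ranged from 8.91 to 17.7 CPM with a median of 10.6 in wild type and from 8.90 to 15.9 CPM with a median of 12.2 in knockout. Its log2 fold change was near 0 (95% interval -0.37 to 0.36), and the sign changed to positive with library totals in place of TMM scaling. Ankrd17, an ankyrin repeat protein of broad expression, ranged from 151 to 185 CPM with a median of 169 in wild type and from 153 to 181 CPM with a median of 174 in knockout, with K7 the lowest knockout heart. The log2 fold change was 0.01 (95% interval -0.12 to 0.14). Ankrd17 shares positions with Gm9958, and no source used here gives the strand setting of the counting, so reads of overlapping genes may be shared.

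**Figure D2:**
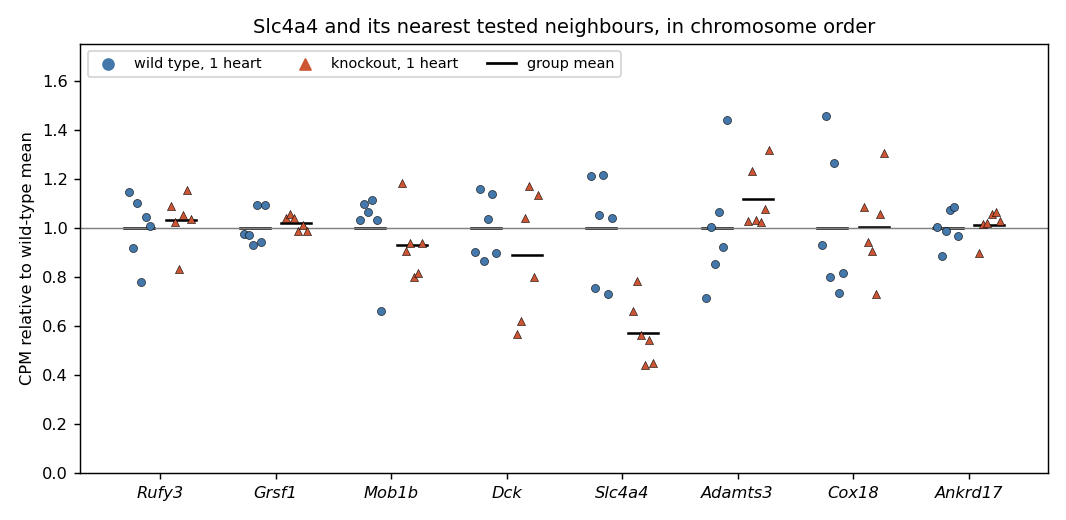
CPM of Slc4a4 and of the 7 nearest tested genes of the list within 1 Mb other than Utp3 in each heart, divided by the wild-type mean of that gene (y axis), with genes in chromosome order (x axis). Circles are wild-type hearts, triangles knockout hearts and bars group means. Slc4a4 is low in knockout, with 5 of 6 hearts under every wild-type heart, while the groups overlap for each of the 7 neighbours.

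The albumin family held the 1 large difference among the tested genes of the list, in Alb. Gc, the vitamin D-binding protein and the first listed gene downstream of Slc4a4, Alb, serum albumin, and Afm, afamin, were read more often in knockout libraries, while Afp, alpha-fetoprotein, had no read in any of the 12. Alb held 0.303 CPM in W1, 0.300 in W2, 0 in W3, 0.440 in W4, 0 in W5 and 1.13 in W6. It held 62.2 CPM in K7, 9.78 in K8, 9.69 in K9, 4.45 in K10, 4.13 in K11 and 1.34 in K12. Every knockout heart lay above every wild-type heart, by a wide margin in K7 and a narrow one in K12. Alb passed the filter on low counts mainly through the knockout libraries, as the wild-type libraries held 0 to 13 reads of it. With wild-type values this low, a tested Alb had to be high in most knockout libraries. The log2 fold change was 5.43 (95% interval 3.57 to 7.29, edgeR adjusted p = 0.0832, DESeq2 adjusted p = 0.00226). Without K7 it was 4.02 (edgeR adjusted p = 0.0259, with 0.00718% of all tested genes called). It was also called without K11 (adjusted p = 0.0201) and without K12 (adjusted p = 0.0123), where 0.0144% of all tested genes were called. Over all 12 such fits its adjusted p ranged from 0.0123 to 0.335, and in limma-voom it was 0.997. Gc held 49 reads in K7, 22 in K8, 8 in K10 and 5 in K11, and 0 in K9 and K12, against 1 in W1, 3 in W6 and 0 in the other 4 wild-type libraries. Gc was too low for the main test. In the edgeR fit of all 19313 genes with a read its log2 fold change was 4.20 (adjusted p = 0.240). There 0.0828% of genes were called, Alb among them, and 5.1% had an unadjusted p under 0.05. Afm held 4 reads in K7 and 2 in K9, and none in wild type.

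Liver markers too low for the test were also read more often, as a sum, in most of the same libraries. Of 24 markers of liver 7 to 10 were detected by at least 1 read in each wild-type library. In knockout libraries 21 were detected in K7, 14 or 15 in K8 to K11, and 9 in K12. The 21 markers too low for the test summed to 0.792 to 3.04 CPM in wild type. They summed to 37.4 CPM in K7, 6.43 in K8, 4.61 in K9, 6.12 in K10, 4.40 in K11 and 2.14 in K12. K7 to K11 were above every wild-type library in this sum, and K12 was within the wild-type range. With the 3 tested markers included, all 24 summed to 29.5 to 49.9 CPM in wild type, and K7 alone, at 72.8 CPM, lay above that range, while K8 to K12 held 32.0 to 41.3 CPM. Of the 24 markers 16 were highest in K7. Those without a read in wild type were Apoa1, Apoc3, Apoh, Fga, Fgb, Fgg, Mup3, Hpd, Ambp and Ugt2b1, and Apoc3 had none in knockout either. Among the 21 low markers, Hpx and Itih3 went the other way. Hpx had 16 reads in wild type and 10 in knockout, and Itih3 had 20 and 15. Mup20 had 1 read in each group. The 3 tested markers were Ahsg, Cyp2e1 and Tat, with log2 fold changes of 0.08, -0.10 and -0.18 and edgeR adjusted p of 0.999 each. The part of these transcripts in the levels of Alb and Gc was not tested.

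**Figure D3:**
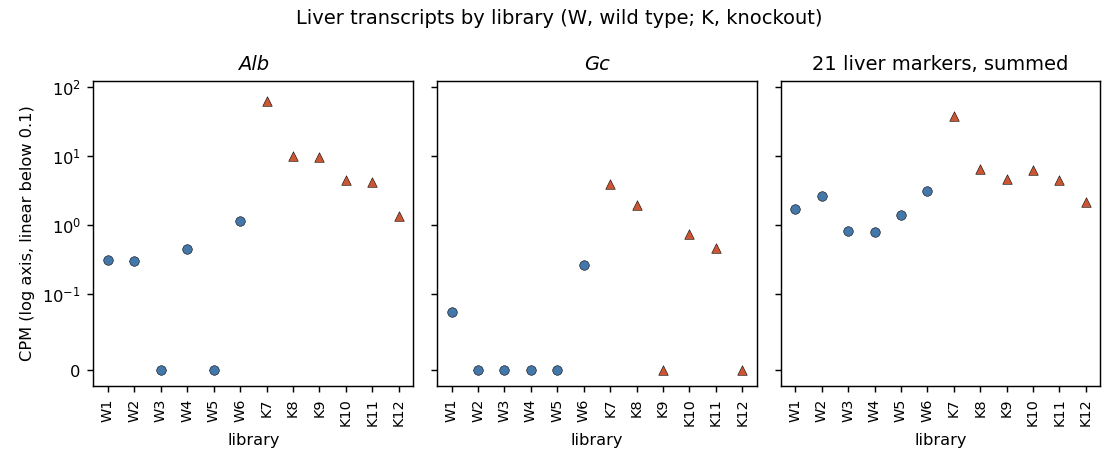
CPM of Alb, of Gc and of the 21 liver markers too low for the test, summed (y axis, log scale above 0.1 and linear below), in each library (x axis; circles wild type, triangles knockout). K7 is highest in all 3 panels, at 62.2 CPM for Alb and 37.4 CPM for the markers, and K12 is the lowest knockout library for Alb and for the markers.

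The start regions of the albumin family show what its members share in sequence. HNF1, a liver transcription factor, binds an element that contains GTTAAT, and the albumin promoter is a textbook case. That motif was chosen for this reason and after the values were seen. The 250 bases before each start are printed 5′ to 3′ on the gene's strand, from RefSeq (GRCm38.p6), in lower case with GTTAAT on either strand in capitals:
Alb, chr5:90460620-90460869, plus strand: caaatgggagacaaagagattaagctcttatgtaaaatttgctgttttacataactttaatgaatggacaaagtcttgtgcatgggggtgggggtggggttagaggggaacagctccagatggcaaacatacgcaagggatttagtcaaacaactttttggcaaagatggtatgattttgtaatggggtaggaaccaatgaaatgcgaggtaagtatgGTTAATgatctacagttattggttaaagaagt
Gc, chr5:89457899-89458148, minus strand: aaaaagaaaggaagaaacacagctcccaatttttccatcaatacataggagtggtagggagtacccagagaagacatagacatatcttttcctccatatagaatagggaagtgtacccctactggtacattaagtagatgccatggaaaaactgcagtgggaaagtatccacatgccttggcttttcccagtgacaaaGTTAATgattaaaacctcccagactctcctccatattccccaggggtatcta
Afm, chr5:90518699-90518948, plus strand: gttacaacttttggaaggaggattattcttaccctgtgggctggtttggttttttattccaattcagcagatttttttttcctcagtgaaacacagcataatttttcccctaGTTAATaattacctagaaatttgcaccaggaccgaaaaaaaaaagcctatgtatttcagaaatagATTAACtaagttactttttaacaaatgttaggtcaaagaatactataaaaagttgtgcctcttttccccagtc
Afp, chr5:90490464-90490713, plus strand: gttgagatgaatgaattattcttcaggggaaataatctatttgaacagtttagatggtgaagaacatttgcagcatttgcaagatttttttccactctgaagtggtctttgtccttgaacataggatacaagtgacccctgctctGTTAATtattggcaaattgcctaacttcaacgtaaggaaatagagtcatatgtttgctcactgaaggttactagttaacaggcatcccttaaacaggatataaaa
All 4 windows hold the motif, and Afm holds it at 2 places. It was found in 6.43% of all 32851 promoter windows of this length, and in 3 of 46 windows of the other flanking genes that had one. Afp, which holds it too, had no read in any heart, so the motif did not separate the members that were read from the one that was not.

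The listed CXC chemokines were low in both groups. Cxcl1 and Cxcl9 passed the filter, Cxcl2, Cxcl5, Cxcl10 and Cxcl11 did not, and none was called. Cxcl9, an interferon-induced ligand of the lymphocyte receptor Cxcr3, ranged from 3.64 to 6.44 CPM with a median of 4.82 in wild type and from 4.04 to 6.90 CPM with a median of 5.41 in knockout. The groups overlapped, with a log2 fold change of 0.13 (95% interval -0.26 to 0.51). Cxcl1, a neutrophil attractant that acts through Cxcr2, ranged from 0.152 to 1.12 CPM with a median of 0.629 in wild type and from 0.0927 to 1.18 CPM with a median of 1.04 in knockout. Of the knockout hearts 5 held 0.941 CPM or more and K10 held 0.0927, and the log2 fold change of 0.49 had a 95% interval of -0.50 to 1.48, too wide to bound the difference within 1.5-fold. Cxcl5, another neutrophil attractant, ranged from 0.322 to 1.30 CPM with a median of 0.701 in wild type and from 0.649 to 1.10 CPM with a median of 0.943 in knockout. Cxcl10, like Cxcl9 induced by interferon, ranged from 0.150 to 1.29 CPM with a median of 0.762 and from 0.268 to 1.11 CPM with a median of 0.364. Cxcl2 had 12 reads in all wild-type hearts and 4 in all knockout hearts, and Cxcl11, a transcribed pseudogene in RefSeq, had 7 and 9. Cxcl10 and Cxcl11 overlap Art3, an abundant gene, so that their few reads are uncertain. Ppbp and Pf4, platelet chemokines of the same interval that were not listed, were looked at after their values were seen. Ppbp averaged 15.2 and 9.51 CPM (log2 fold change -0.68, edgeR adjusted p = 0.999) and Pf4 4.62 and 4.77 CPM (log2 fold change 0.05, edgeR adjusted p = 0.999).

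Other genes of chemokine signalling also gave no call. Of 13 receptors and other ligands, 8 were tested, 4 with positive and 4 with negative fold changes, and 0 had an unadjusted p under 0.05. Cxcl12, the stromal ligand of Cxcr4, had means of 297 CPM without and 338 CPM with Cre, at a log2 fold change of 0.18 and the smallest unadjusted p of the list, 0.0507 (edgeR adjusted p = 0.999). Cxcl14 averaged 14.7 and 12.2 CPM (edgeR adjusted p = 0.999). Of 12 interferon-induced genes, all tested, 5 were positive and 7 negative and 0 had an unadjusted p under 0.05. Irf9, a subunit of the interferon-stimulated transcription complex, averaged 19.6 and 16.8 CPM, and Ifit1 17.6 and 19.0 CPM (edgeR adjusted p = 0.999 each). Leukocyte markers summed to 259 to 400.3 CPM in wild type and 269.5 to 347 CPM in knockout. Of their 6 tested members Ptprc, the pan-leukocyte phosphatase CD45, was lower at an unadjusted p of 0.0150 (edgeR adjusted p = 0.999), going from 14.4 ± 4.18 CPM to 10.7 ± 1.28 CPM (mean ± SD, 6 hearts each). Platelet markers summed to 7.58 to 41.8 CPM and 9.90 to 29.2 CPM. Of their 4 tested members Itga2b averaged 2.81 and 1.55 CPM (unadjusted p = 0.0343, edgeR adjusted p = 0.999). All 6 red cell markers had negative fold changes, 5 of them at an unadjusted p under 0.05 (4.06% of all tested genes). Their sum was 23910 CPM in W2 and 11600 CPM in W3, and 4707 to 5716 CPM in the other 4 wild-type libraries, against 3684 to 8867 CPM in knockout libraries. The wild-type median was 5643 CPM and the knockout median 5164 CPM. The part of blood cells in the chemokine levels was not tested.

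Of the 4 ligands of the EGF receptor family, only Btc had enough reads for the test. Btc, betacellulin, ranged from 1.65 to 3.78 CPM with a median of 2.30 in wild type and from 1.18 to 3.76 CPM with a median of 2.77 in knockout. The groups overlapped, with a log2 fold change of 0.09 (95% interval -0.51 to 0.69). Epgn, epigen, had 8 reads in wild type and 16 in knockout, and Ereg, epiregulin, had 19 and 6, each spread over several hearts. Ereg reached 0.697 CPM in W5 and 0.525 CPM in W2 and was at most 0.185 CPM in the knockout hearts. Areg, amphiregulin, had no read. Among 16 receptors, other ligands and partners of this pathway, 15 were tested, 5 with positive and 10 with negative fold changes. Erbb4, the neuregulin receptor of heart muscle, had the 1 unadjusted p under 0.05, with 11.3 ± 2.98 CPM without Cre and 8.49 ± 1.98 CPM with it (mean ± SD, 6 hearts each). Its log2 fold change was -0.42 (unadjusted p = 0.0398, edgeR adjusted p = 0.999).

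Away from these families, Cenpc1 and Art3 had the smallest unadjusted p after Alb. Cenpc1, the inner kinetochore protein that marks the centromere, lies 2.73 Mb upstream. It ranged from 8.16 to 11.9 CPM with a median of 10.1 in wild type and from 11.2 to 13.5 CPM with a median of 12.2 in knockout. All knockout hearts lay above 5 of the 6 wild-type hearts, and W5 alone overlapped with them. The mean was 10.1 ± 1.20 and 12.3 ± 1.05 CPM (SD, n = 6 each), a log2 fold change of 0.27 (95% interval 0.03 to 0.52, unadjusted p = 0.0316, edgeR adjusted p = 0.999). Its unadjusted edgeR p ranged from 0.0178 (without W5) to 0.0846 (without W6) when single libraries were left out. It was above 0.05 without W4, W6, K8, K9 or K10. Art3, a member of the mono-ADP-ribosyltransferase family that is anchored at the cell surface, lies 3.09 Mb downstream and was the third most abundant flanking gene per length of exon. It ranged from 260.3 to 357 CPM with a median of 311 in wild type and from 233 to 297 CPM with a median of 256 in knockout. In 3 knockout hearts, K8, K11 and K12, the level was below every wild-type heart, while K7, K9 and K10 lay among them. The mean was 303 ± 35.1 and 262 ± 29.6 CPM (SD, n = 6 each), a log2 fold change of -0.21 (95% interval -0.40 to -0.03, unadjusted p = 0.0232, edgeR adjusted p = 0.999). For Art3 the unadjusted edgeR p in fits without 1 library ranged from 0.00697 (without W6) to 0.0597 (without K11). It was above 0.05 without W4, K8, K11 or K12.

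**Figure D4:**
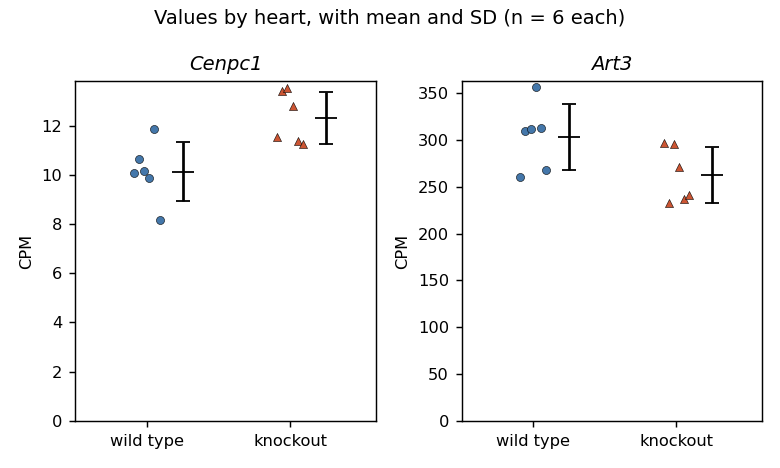
CPM of Cenpc1 (left) and Art3 (right) in each heart (y axes from 0), with the group mean and SD beside the points (n = 6 each). Cenpc1 lies between 8.16 and 11.9 CPM in wild type and between 11.2 and 13.5 CPM in knockout, and for Art3 the upper 3 knockout hearts lie among the wild-type hearts.

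Per length of exon, a few of the listed genes stood above the rest, and the first 5 came in the same order in both groups. The unit here is reads per kilobase of annotated exon per 1000000 reads (RPKM), computed from the union of GENCODE exons. Mean levels were 121 in wild type and 123 in knockout for Grsf1, 85.7 in wild type and 94.1 in knockout for Ccni, 77.1 in wild type and 66.7 in knockout for Art3, 21.8 in wild type and 24.7 in knockout for Utp3 and 19.4 in wild type and 19.9 in knockout for G3bp2. Ccni, an atypical cyclin found in many tissues that do not divide, ranged from 258 to 330.0 CPM with a median of 272 in wild type and from 296 to 338 CPM with a median of 306 in knockout. K11 lay above every wild-type heart, and the log2 fold change was 0.13 (95% interval -0.01 to 0.27). Ccni overlaps Sept11, a septin filament gene, whose log2 fold change was 0.10. G3bp2, a protein of stress granules, ranged from 157 to 188 CPM with a median of 165 in wild type and from 153 to 186 CPM with a median of 174 in knockout, with a log2 fold change of 0.03 (95% interval -0.10 to 0.16).

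**Figure D5:**
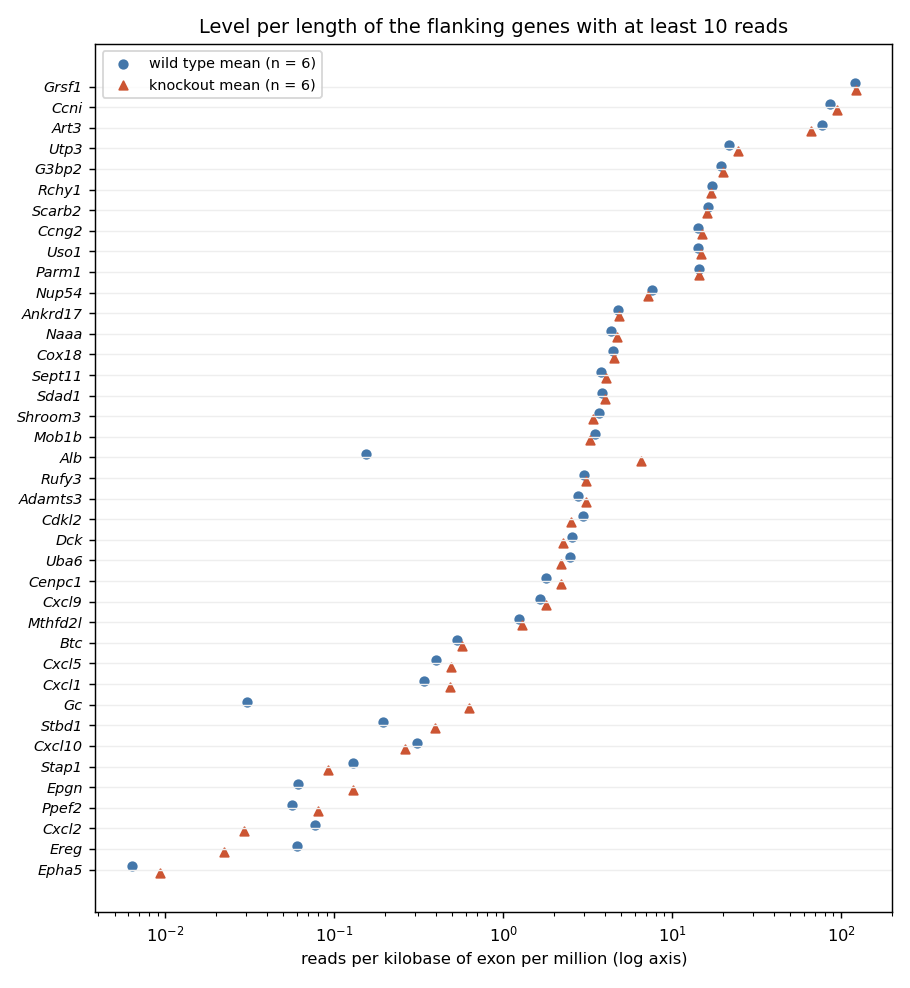
Mean level of each flanking gene with at least 10 reads and an annotated exon length, in reads per kilobase of exon per 1000000 reads (x axis, log scale), in wild type (circles) and knockout (triangles), ordered by the mean of all 12 hearts. Alb and Gc are the genes whose symbols lie farthest apart.

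By role, the other tested members gave small differences with intervals within 1.5-fold. Among 6 genes of ribosome assembly, RNA handling and the nuclear pore, 5 were positive and 1 negative, such as Sdad1, which acts in export of the large ribosomal subunit, at 0.05 and the pore protein Nup54 at -0.08. Among 5 genes of the cell cycle, growth control and related kinases, 3 were positive and 2 negative. Ccng2, cyclin G2, had 0.09 and the kinase Cdkl2 -0.23, the lowest of the 30 (95% interval -0.50 to 0.04). The ubiquitin-activating enzyme Uba6 had -0.20 and the ubiquitin ligase Rchy1 -0.03, each a log2 fold change with an edgeR adjusted p of 0.999. Rchy1 overlaps Thap6, which RefSeq lists as a transcribed pseudogene, at 0.12.

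Genes of membrane traffic and the cytoskeleton gave 5 tested of 6, 3 positive and 2 negative. Uso1, a tether of vesicles between the endoplasmic reticulum and the Golgi, averaged 83.2 ± 5.01 and 86.6 ± 5.05 CPM. Scarb2, a lysosomal membrane receptor, averaged 102 ± 7.47 and 101 ± 8.76 CPM, and Shroom3, a regulator of cell shape through actin, 48.6 ± 4.26 and 44.9 ± 3.84 CPM (SD, n = 6 each). Their log2 fold changes were 0.05, -0.03 and -0.12. Parm1, a mucin-like membrane protein, averaged 72.8 ± 9.26 and 72.7 ± 8.24 CPM (SD, n = 6 each). Among 5 genes of mitochondria and metabolism, Mthfd2l, a mitochondrial folate enzyme, had a log2 fold change of 0.05 and Naaa, an amidase of fatty acid amides, 0.13. Stbd1, which tethers glycogen to membranes, was too low for the test, with 32 reads in wild type and 60 in knockout, and K7, K8 and K10 lay above every wild-type heart.

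The remaining listed genes had few reads in the heart. Stap1, an adaptor of blood cells, had 60 reads in wild type and 38 in knockout, Epha5, an ephrin receptor, 8 and 11, and Ppef2, a phosphatase known from photoreceptors, 13 and 16. Rassf6 had 9 reads in wild type, in W1 and W3, and 0 in knockout. Ccdc158 had 1 read in wild type and 8 in knockout, and Sowahb 0 and 3, all of the latter in K11. None of these was high enough for the main test, and in the fit of all genes with a read Rassf6 alone among them had an unadjusted p under 0.05.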

How the data were processed

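The authors deposited 1 table of unnormalized counts, with a row per gene and a column per mouse. The tools listed are TopHat, DESeq, CASAVA 1.8 and bcl2fastq, with build mm10, per the submitters' processing notes. No source used here names the counting program, annotation or strand setting. Groups came from the sample titles. Names and positions came from RefSeq (GRCm38.p6) for 23976 of 24061 identifiers, and exon lengths from GENCODE M21, on the same build.

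Knockout was compared with wild type in edgeR 4.0.16 under R 4.3.3 (filterByExpr with minimum count 10 and minimum total 15, TMM scaling, quasi-likelihood F test, Benjamini-Hochberg over 13832 genes, threshold 0.05). Standard errors follow from the fold change and its F value, and 95% intervals from those. CPM were taken over library totals. The fit was tested on simulated data. Alternatives were other scalings and filters, DESeq2 1.42.0, limma-voom (limma 3.58.1) and each library left out.

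Per-heart values were given for Slc4a4, the 4 nearest tested genes on each side, genes with an unadjusted p under 0.05, the 5 highest per length, and the albumin, EGF ligand and chemokine members with at least 10 reads. Stbd1, Rassf6 and other low genes outside this rule were described after their values were seen. Of the context lists, genes with an unadjusted p under 0.05 are named, or otherwise the 2 with the smallest p. The flanking genes and lists were chosen with earlier results of these data known. Sowahb, with 3 reads in all, has the same count in every library as another gene, and whether the 2 share reads was not tested. Plots were drawn with matplotlib 3.10.9.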

Additional observations from a re-analysis of the deposited data

Results flagged for a closer look

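Of 86 sets of 6 values (42 genes and the library totals, in each group), 9 held a single value set well apart. About 4.3 (1 in 20) would do so by chance if the sets were independent. They share the same 12 libraries and some hold few reads, so 4.3 is only a rough guide. K7 accounted for 5 of the 9. It was the deepest knockout library, at 12756955 counts against 10631869 to 11351783 in the others. In K7 Alb was at 62.2 CPM against 1.34 to 9.78, Mob1b at 62.2 CPM against 42.0 to 49.4, Cxcl11 at 0.627 CPM against at most 0.0941, and Ankrd17 was the lowest, at 153 CPM against 173 to 181.

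Mob1b was also apart in wild type, where W6 held 34.8 CPM and the other 5 hearts 54.2 to 58.4. Gc in W6, at 0.26 CPM (3 reads), was above the other wild-type hearts, which held at most 0.0758. Cxcl1 was at 0.0927 CPM in K10 and at 0.941 to 1.18 CPM in the other knockout hearts. Ppef2 was at 0.881 CPM in K8 and at most 0.278 CPM in the others.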

How the results depend on the processing

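The 6 alternatives to scaling, filter and test and the 12 that leave out a library changed few results. With every gene with a read tested, 1 flanking gene (Alb) was called and 6 had an unadjusted p under 0.05 (Cenpc1, Gc, Alb, Afm, Rassf6 and Art3, 5.1% of all genes), and DESeq2 called 1 (Alb). Slc4a4 passed the threshold in both, with log2 fold changes of -0.81 in each, and in the runs that left out a library it ranged from -0.92 to -0.74. In those runs the number called ranged from 0 to 1 (Alb without K7, K11 or K12). The number at an unadjusted p under 0.05 ranged from 1 (without K8) to 7 (without W6, where 5.59% of all genes reached it). The number without overlap was 1, or 2 without W5, which was the only wild-type heart to overlap for Cenpc1. No share of all genes without overlap is given for those runs. The median log2 fold change ranged from 0.03 to 0.07, and rho with distance from -0.18 (without W2) to 0.0242. With distances between gene starts rho stayed within the spread between libraries, and all annotated genes of the interval gave a median of 0.05.

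The sign of 8 of 30 tested genes changed under some alternative, and 22 kept theirs under all 18. Cox18 was 0.00682 with library totals and 0.0340 in limma-voom. When single libraries were left out, log2 fold changes ranged from -0.0931 to 0.148 for Cox18, -0.0283 to 0.0904 for Rufy3, -0.0131 to 0.0434 for Ankrd17, -0.0713 to 0.114 for Mthfd2l, -0.0396 to 0.257 for Btc, -0.0503 to 0.0507 for Parm1, -0.0178 to 0.0947 for Sdad1 and -0.0623 to 0.0168 for Scarb2. The cause was not tested. No paired analysis was possible because the groups share no replicate numbers.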

Other observations

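Upstream of Slc4a4, between the flanking genes Uba6 and Utp3, lies a block of 13 drug and steroid conjugating genes of the Ugt2 and Sult1 families, which are used mainly by the liver and were not among the genes listed. They were looked at after the values were seen. The whole block held 18 reads in wild type and 59 in knockout. Sult1e1, a sulfotransferase of oestrogens, had 18 reads in wild type and 11 in knockout. Of the other 12 genes only 7 had a read. Together they had no read in any wild-type library and 48 in knockout libraries. Of these 48 reads, K7 held 33, K8 11, K11 2, K9 and K10 1 each and K12 0.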
